A study of Homo sapiens with 53 samples.

Results

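The regions described here are 2494 TET3 peaks of HEK293T cells that were called under vehicle and again under the compound BPK-25, at places where TET1 had no peak under vehicle. They were chosen from 14129 TET3 peaks called under vehicle (dimethyl sulfoxide, DMSO), each made by joining rows of the peak list that overlapped or touched. A peak was taken if it shared at least 1 bp with a TET3 peak of the BPK-25 list and none with a DMSO TET1 peak. The members were 17.7% of the DMSO TET3 peaks and touched 2488 of the 13360 BPK-25 TET3 peaks, 18.6% of that list. For brevity they are called kept peaks, and the 8115 DMSO TET3 peaks with neither a BPK-25 TET3 peak nor a DMSO TET1 peak are called peaks that were not kept.

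The study was chromatin immunoprecipitation followed by sequencing (ChIP-seq) in HEK293T, a human embryonic kidney cell line. Cells received DMSO or 30 µM BPK-25 for 72 h. CTCF and MBD3 were precipitated with their own antibodies from HEK293T cells whose labels name no tag, and TET1, TET2 and TET3 were each precipitated with a Flag antibody from HEK293T samples labelled TET1_Flag, TET2_Flag or TET3_Flag, so every TET value is of a Flag-tagged protein. The 53 samples form 18 groups, 29 of them immunoprecipitates and 24 inputs, with 3 samples a group except 2 for TET2 under DMSO. The labels used here do not say how the tagged cells were made or whether each line is 1 clone.

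TET1, TET2 and TET3 are dioxygenases that oxidize 5-methylcytosine in DNA, the first step of active demethylation, and TET1 and TET3 proteins have forms with a CXXC domain that binds CpG-containing DNA. CTCF is a zinc finger protein that anchors chromatin loops, and its binding at many sites is sensitive to DNA methylation. MBD3 is a subunit of the nucleosome remodelling and deacetylase (NuRD) complex, and BPK-25 is a cysteine-reactive acrylamide known to lower NuRD complex proteins.

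The deposited values are 10 peak lists, 1 for each target and treatment, whose names join the replicates. No list gives a spread between replicates, so no test between treatments or between sets of peaks could be made. Each share comes with its Clopper-Pearson 95% interval, an exact interval for counting error alone. Fold enrichment is the peak caller's ratio of fragments at the peak's highest point, the summit, over the local background there, with 1 added to both. The fragment count at the summit (the pileup) and the local background were recovered from the fold enrichment and the p-value of each row. Across the lists the genome background lay between 1.05 fragments (TET2, BPK-25) and 3.68 fragments (CTCF, DMSO). The lists held between 447 peaks (TET1, BPK-25) and 245419 peaks (CTCF, BPK-25). CTCF had 99587 peaks under DMSO, and MBD3 had 82358 under DMSO and 243213 under BPK-25. Chances of overlap therefore differ between lists, and shares are compared only within a list.

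A set of 3 lists chose the members: DMSO TET3, BPK-25 TET3 and DMSO TET1. Of all 14129 DMSO TET3 peaks, 4502 (31.9%) overlapped a BPK-25 TET3 peak and 3520 (24.9%) a DMSO TET1 peak. Outside TET1 peaks the share kept was 23.5%. Nothing is read from these overlaps. The exclusion of TET1 was by overlap alone: 191 members lay within 1000 bp of a TET1 peak and 10 within 100 bp, the nearest at 7 bp. Single peaks are named from chromosomes 1 to 22 and X where the local background was under 20 times the genome background, except where a high background or a run of peaks is described. At the edge of the overlap rule, the members with the fewest shared bases were on chromosome 17, 39845586 to 39846119 (4 bp shared, TET3 fold enrichment 4.30 under DMSO and 3.34 under BPK-25), on chromosome 5, 43515292 to 43515512 (6 bp, 3.18 and 3.70), and on chromosome 11, 27528056 to 27528238 (8 bp, 3.99 and 4.28). Just outside it, the peaks on chromosome 6 at 91321010 to 91321194, 76313886 to 76314103 and 33385988 to 33386236 lay 2, 4 and 6 bp from a BPK-25 TET3 peak, with DMSO fold enrichments of 3.43, 3.28 and 3.80. Positions are 1-based on hg19, the build in the submitters' processing notes.

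Most kept peaks held few fragments, though more than the peaks that were not kept. Under DMSO the median summit held 17 fragments (quartiles 13 and 21), and a count of 17 has a Poisson 95% interval of 9.90 to 27.2. Under BPK-25 the median summit held 14 fragments (12 and 19), for which the interval is 7.65 to 23.5. Single peaks are thus measured loosely, and the values below are mostly medians over many peaks. TET3 fold enrichment had a median of 4.38 under DMSO (quartiles 3.61 and 5.34, range 1.39 to 13.8) and of 4.93 under BPK-25 (4.16 and 6.18, range 1.39 to 18.1). The peaks that were not kept had a DMSO median of 4.10 (3.52 and 4.93), so the quartile ranges of both sets overlapped. The DMSO pileup over the genome background had a median of 10.0 (7.67 and 12.4) at kept peaks and 7.67 (6.49 and 9.43) at those not kept. It was 8.84 over all DMSO TET3 peaks. The median −log10 q was 4.64 at kept peaks and 3.34 at those not kept. Since the rule used the TET3 lists, these values are a description.

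For single members, the ratio of BPK-25 to DMSO TET3 fold enrichment had a median of 1.14 (quartiles 0.889 and 1.47). It was above 1 at 1602 members, 64.2%, against 61.1% of all 4502 peaks present in both TET3 lists. It was 2 or more at 222 members, and 0.5 or less at 37. The fragment pileup gave another picture: taken over each list's genome background, the BPK-25 to DMSO ratio had a median of 0.916 (0.709 and 1.19) and was above 1 at 40.5% of members. The local background at the summit, taken over the genome background, had a median of 1.61 under DMSO and 1.10 under BPK-25. The direction of the TET3 ratio over the whole set thus changed with the scale. The scales differed in the background used, and in the 1 that fold enrichment adds to both counts. Peaks were 288 bp wide in the median under DMSO and 238 bp under BPK-25, and the summits of the same peak lay 46 bp apart (quartiles 18 and 108 bp).

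On chromosomes 1 to 22 and X and outside members whose local background was 20 times the genome background or more, the strongest kept peak by DMSO q-value was on chromosome 17, 46570087 to 46570613. It had 59 fragments and a TET3 fold enrichment of 13.8 under DMSO, against 24 fragments and 7.09 under BPK-25, while CTCF there was 91.8-fold in the DMSO list and 4.84-fold in the BPK-25 list. The next, on chromosome 17 at 78865860 to 78866425, went the other way for TET3, with 11.0 under DMSO (50 fragments) and 13.6 under BPK-25 (52 fragments). On chromosome 13, 28491265 to 28491691, the values were 13.0 (34 fragments) and 4.54 (11 fragments). Since these were chosen for a high DMSO value, no direction is read from them. Of the 10 strongest, 8 overlapped CTCF and MBD3 peaks under both treatments. Such overlap was common at strong TET3 peaks, so the count is not read as a trait of kept peaks. In the strongest of 5 equal groups by DMSO TET3 q-value, BPK-25 CTCF was at 60.9% of kept peaks and 70.4% of those not kept. BPK-25 MBD3 was at 61.1% and 73.1%.

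**Figure D1:**
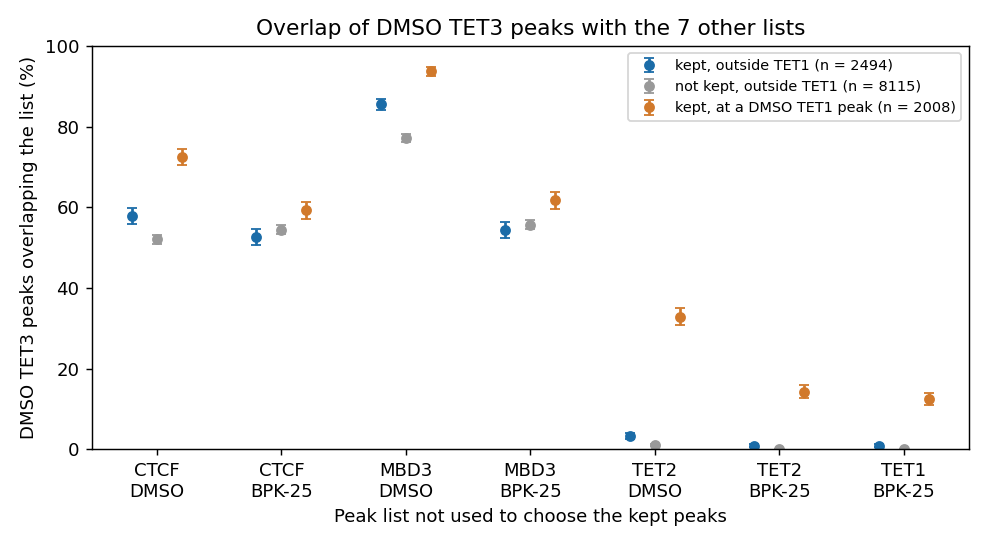
Share of DMSO TET3 peaks (y axis, %) that overlap each of the 7 peak lists that did not choose the members (x axis). Points are shares and bars exact Clopper-Pearson 95% intervals. Kept peaks outside TET1 (blue) lie above peaks that were not kept (grey) for MBD3 under DMSO, 85.6% against 77.2%, and all shares for TET2 and for TET1 under BPK-25 are low beside those of kept peaks at a DMSO TET1 peak (orange).

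MBD3, the NuRD subunit, had a peak at most DMSO TET3 peaks, kept or not. Of the kept peaks, 2134 overlapped a DMSO MBD3 peak, 85.6% (84.1 to 86.9), against 82.6% of all DMSO TET3 peaks and 77.2% (76.3 to 78.1) of those that were not kept. This difference lay among the weak TET3 peaks. In the weakest of 5 equal groups by DMSO TET3 q-value the MBD3 share was 77.8% for kept peaks and 63.8% for the others. In the strongest group MBD3 was at 521 of 548 kept peaks and 684 of 720 others, intervals of 92.9 to 96.7% and 93.1 to 96.5%. With only rows of −log10 q of at least 10 in all lists the order turned, 82.4% for kept peaks and 84.8% for the others. MBD3 summits lay a median of 53 bp from the TET3 summit at kept peaks and 76 bp at peaks that were not kept. MBD3 fold enrichment there was 4.67 (quartiles 3.47 and 6.45) and 4.70 (3.45 and 6.66), so the strength of MBD3 was alike within its spread.

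Under BPK-25, 1356 kept peaks overlapped an MBD3 peak, 54.4% (52.4 to 56.3), where all DMSO TET3 peaks gave 57.9% and those that were not kept 55.7% (54.6 to 56.8). Counting only kept peaks with MBD3 under DMSO, 59.5% (57.4 to 61.6) had an MBD3 peak under BPK-25 too. The same share was 66.3% over all DMSO TET3 peaks and 67.0% (65.8 to 68.2) at those that were not kept. Where kept peaks had MBD3 in both lists (1270 peaks), MBD3 fold enrichment was 6.45 under DMSO (4.44 and 9.40) and 4.92 under BPK-25 (3.68 and 6.56), with a median ratio of 0.758.

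CTCF, the loop anchor protein, overlapped 1443 kept peaks under DMSO, 57.9% (55.9 to 59.8), close to the 58.1% of all DMSO TET3 peaks and above the 52.0% (50.9 to 53.1) of those that were not kept. The kept share hardly moved with TET3 strength, from 55.6% in the weakest of the 5 groups to 58.8% in the strongest. At peaks that were not kept it went from 41.1% to 66.8%, so the order of both sets turned over between weak and strong TET3 peaks. With only rows of −log10 q of at least 5 the shares were 59.4% and 59.7%. Under BPK-25, 1315 kept peaks overlapped a CTCF peak, 52.7% (50.7 to 54.7), against 56.4% of all DMSO TET3 peaks. Of kept peaks with CTCF under DMSO, 67.6% (65.2 to 70.0) had a CTCF peak under BPK-25, against 74.8% of all DMSO TET3 peaks with CTCF. Of kept peaks without it, 32.3% (29.4 to 35.2) did, against 31.0%.

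The BPK-25 CTCF and MBD3 lists marked largely the same TET3 peaks, whether members or not. Both were present at 1195 members, 47.9%, which is 90.9% of the members with BPK-25 CTCF and 88.1% of those with BPK-25 MBD3. Over all DMSO TET3 peaks both were present at 52.0%, which is 92.1% of those with BPK-25 CTCF and 89.8% of those with BPK-25 MBD3. The most frequent combination was a peak in all 4 CTCF and MBD3 lists and in none for TET1 or TET2, at 850 members (34.1%). MBD3 under DMSO alone came next with 467 members, then CTCF and MBD3 under DMSO alone with 265. Single combinations were not counted over all DMSO TET3 peaks, only the number of lists. Peaks in any 4, 1 and 2 of the 7 lists made 34.6%, 23.5% and 17.8% of members, against 37.9%, 19.4% and 13.5% of all. No peak in any of the 7 lists was found at 150 members, 6.01%, against 9.68% of all DMSO TET3 peaks. With the same limits on chromosome and local background, the strongest of these 150 by DMSO TET3 q-value was on chromosome 9, 130503047 to 130503459, where TET3 reached 7.30-fold in the DMSO list (24 fragments) and 5.42-fold in the BPK-25 list (22 fragments).

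Kept peaks and peaks that were not kept differed more in the strength of CTCF than in its presence. At kept peaks that overlapped CTCF, the nearest DMSO CTCF summit had a median fold enrichment of 17.6 (quartiles 4.14 and 90.6), against 5.98 (3.58 and 28.0) at peaks that were not kept. A strong CTCF summit, taken here as a fold enrichment of 30 or more within 200 bp of the TET3 summit at a TET3 peak that overlaps CTCF, was found at 564 kept peaks, 22.6% (21.0 to 24.3). The share was 13.6% over all DMSO TET3 peaks and 9.71% (9.07 to 10.4) at those that were not kept. At kept peaks with a DMSO TET1 peak it was 20.8% (19.0 to 22.6). Within the 5 groups of TET3 strength, from weak to strong, kept peaks gave 24.2%, 29.4%, 24.1%, 22.9% and 14.4%. Peaks that were not kept gave 10.3%, 10.1%, 9.81%, 9.70% and 6.53%, so the kept share was higher in every group. Strong CTCF taken from a fold enrichment of 16 gave 25.2% against 12.2%, and from 64 it gave 18.0% against 6.05%.

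**Figure D2:**
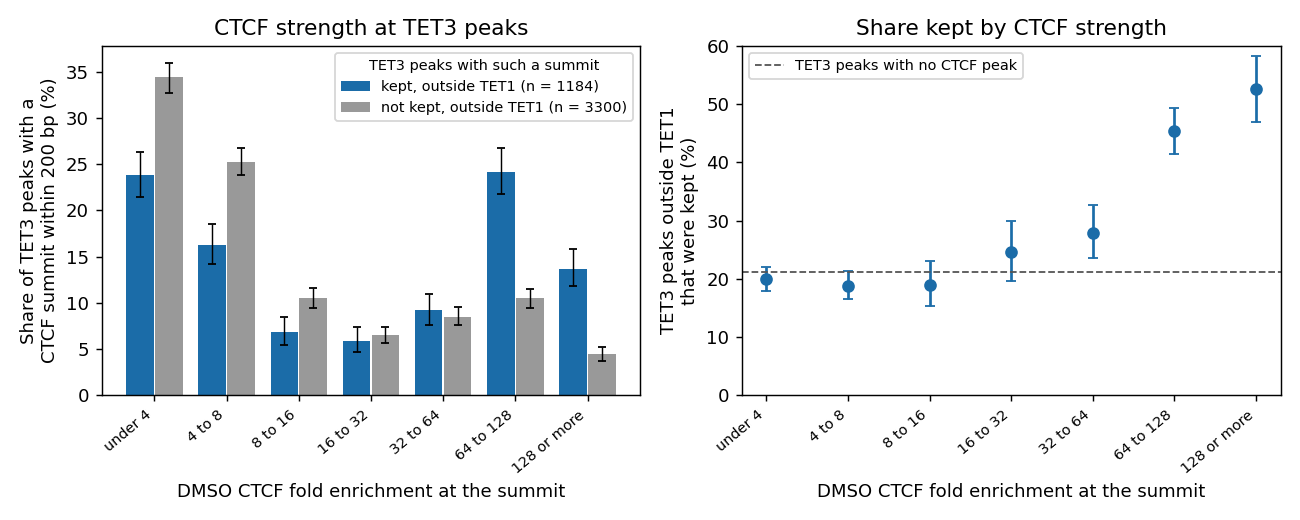
Left, TET3 peaks that overlap a CTCF peak and have a CTCF summit within 200 bp, by the DMSO CTCF fold enrichment of that summit (x axis), as a share of kept (blue) and not kept (grey) peaks with such a summit (y axis, %). Right, the share of TET3 peaks outside TET1 that were kept (y axis, %) in the same bins, from 19.9% under a fold enrichment of 4 to 52.6% at 128 or more; the dashed line is 21.2% at peaks with no CTCF. Bars are exact Clopper-Pearson 95% intervals.

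Few TET3 peaks that overlapped DMSO CTCF and had a CTCF summit within 200 bp had a CTCF fold enrichment of 16 to 32. Of 1184 such kept peaks, 23.8% were under 4, 5.91% between 16 and 32 and 24.2% between 64 and 128. At the 3300 such peaks that were not kept the shares were 34.4%, 6.52% and 10.5%. Over all DMSO TET3 peaks of this kind they were 30.4%, 6.52% and 13.5%. The low share from 16 to 32 was thus no trait of kept peaks, while their share from 64 to 128 was higher. Read the other way, 52.6% (46.9 to 58.3) of the TET3 peaks outside TET1 with a CTCF summit of 128-fold or more were kept, and 45.4% (41.5 to 49.4) of those at 64 to 128. The share was 19.9% (17.9 to 22.1) under 4 and 21.2% (20.1 to 22.4) without CTCF. The plot of CTCF strength shows that the share kept lay near the level without CTCF below a fold enrichment of 16.

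Local background was higher at kept peaks. It had a median of 1.61 times the genome background at kept peaks and 1.25 times at the others. Among kept peaks it was 1.79 times at strong CTCF summits, 1.61 times at weaker ones within 200 bp and 1.61 times without CTCF. It did not rise steadily with CTCF strength, with 1.93 times from 8 to 16, 1.61 from 32 to 64 and 1.79 at 128 or more. Ranking the TET3 peaks outside TET1 into 3 equal groups by local background, 12.1%, 20.3% and 38.1% were kept from low to high. In the low group 68 of 309 peaks at strong CTCF summits were kept (interval 17.5 to 27.0%), against 10.7% (8.96 to 12.6) at weaker CTCF summits within 200 bp and 10.9% (9.49 to 12.5) without CTCF. In the high group the same shares were 57.5% (53.5 to 61.5), 32.4% (29.5 to 35.4) and 35.5% (33.1 to 37.9). The share kept at strong CTCF summits was thus the highest within each background group, as it was in the middle one, 34.2% against 17.5% and 18.2%.

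The 564 kept peaks at strong CTCF summits also had another TET3 profile. Their median TET3 fold enrichment was 4.10 under DMSO (quartiles 3.47 and 4.96) and 6.22 under BPK-25 (5.14 and 7.78). The ratio had a median of 1.52 (1.13 and 2.03) and was above 1 at 475 of them, 84.2% (80.9 to 87.1). At the 620 kept peaks with a weaker CTCF summit within 200 bp the medians were 4.56 and 4.62, with a ratio of 1.01 (0.785 and 1.26), above 1 at 51.3% (47.3 to 55.3). The 259 with a CTCF summit farther off had 1.06, and the 1051 without CTCF 1.11 (above 1 at 56.8% and 63.0%). Taken as pileup over the genome background, the ratio was 1.17 (0.884 and 1.49) at strong summits and above 1 at 62.9%, and 0.793 (0.643 and 1.03) at weaker ones and above 1 at 26.5%. It was 0.884 at members with a CTCF summit farther off and 0.902 without CTCF, above 1 at 38.2% and 37.4%. The order of the 4 classes was the same on both scales, but the direction turned in every class except that of strong CTCF. Since members had to be called in both TET3 lists, these ratios are a description of the kept peaks.

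**Figure D3:**
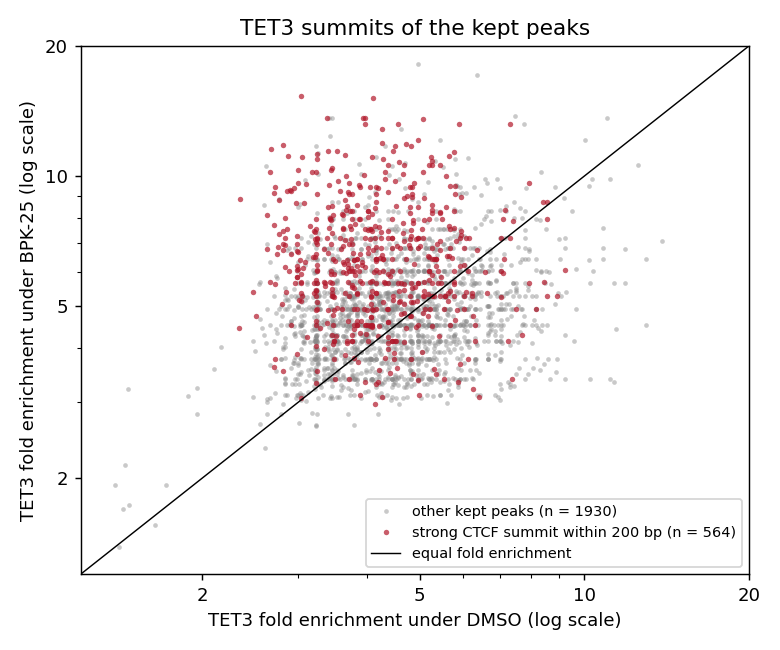
TET3 fold enrichment of each kept peak under DMSO (x axis, log scale) and BPK-25 (y axis, log scale); red points are the 564 with a strong CTCF summit within 200 bp, grey points the other kept peaks, and the line marks equal values. Of the red points, 84.2% lie above the line.

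The TET3 ratio was highest where CTCF was strongest. It was 0.997 below a CTCF fold enrichment of 4 and 0.996 from 4 to 8, 1.11 from 8 to 16, 1.08 from 16 to 32, 1.16 from 32 to 64, 1.56 from 64 to 128 and 1.67 (1.24 and 2.21) at 128 or more. As pileup over the genome background the medians were 0.799, 0.802, 0.765, 0.810, 0.945, 1.16 and 1.32 in the same order. The direction from 8 to 64 thus turned with the scale, while both bins from 64 up were above 1 on both. The kept peaks with a DMSO TET1 peak, which are no members, gave fold enrichment ratios of 0.963, 0.951, 1.02, 1.16, 1.26, 1.47 and 1.69. The local background is part of the fold enrichment, and its part in the size of these ratios was not tested.

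**Figure D4:**
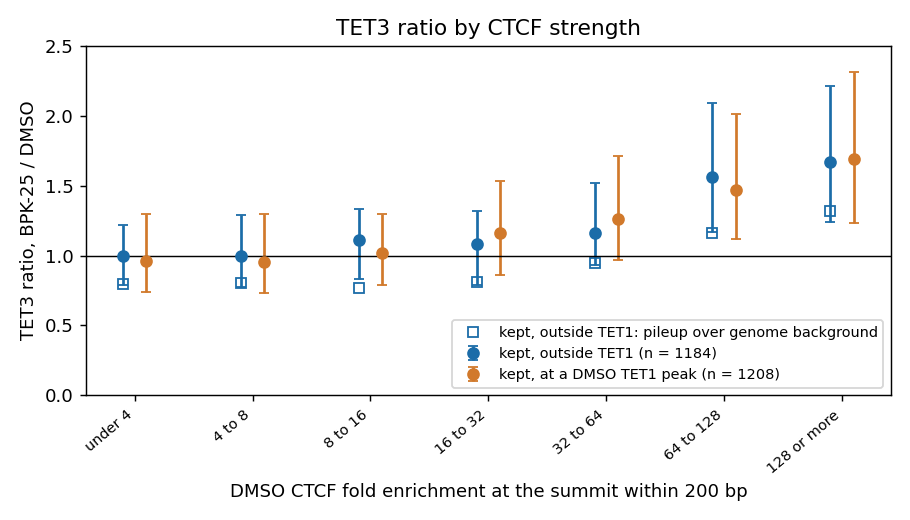
Ratio of BPK-25 to DMSO TET3 (y axis) by the DMSO CTCF fold enrichment of the summit within 200 bp (x axis), for kept peaks outside TET1 (blue) and kept peaks at a DMSO TET1 peak (orange). Filled points are medians of the fold enrichment ratio and bars its quartiles; open blue squares are medians of the pileup ratio over the genome background. The blue medians go from 0.997 under 4 to 1.67 at 128 or more, and the open squares from 0.799 to 1.32.

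TET3 summits were also closest to CTCF at these peaks. The median distance from the TET3 summit to a strong CTCF summit was 29 bp under DMSO (quartiles 14 and 64.8 bp) and 15 bp under BPK-25 (6 and 29 bp), with the CTCF summit taken from the DMSO list both times. The BPK-25 summit was the nearer at 376 of 564, 66.7% (62.6 to 70.5). At weaker CTCF summits the distances were 73.5 bp and 82.5 bp, and the BPK-25 summit was nearer at 40.6% (36.8 to 44.6). TET3 summits of both treatments lay within 50 bp of each other at 69.9% of the members with strong CTCF and at 46.1% of those with weaker CTCF.

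CTCF itself had far lower fold enrichment in the BPK-25 list at these members. A BPK-25 CTCF peak was present at 342 of the 564, 60.6% (56.5 to 64.7). This was near the 59.8% of all DMSO TET3 peaks at strong CTCF summits, and 50.1% (46.6 to 53.7) of those not kept had one. Levels in both lists are taken at the summit of the best q-value in the overlapping CTCF peak, which need not be the summit that set the class. At these 342 the median CTCF fold enrichment was 111.4 under DMSO (79.8 and 158.4) and 4.92 under BPK-25 (3.78 and 6.66, highest 13.4). The median ratio was 0.0435 (0.0301 and 0.0632), in a class chosen for a high DMSO value. At the 443 members with weaker CTCF and a peak under both treatments the values were 5.90 and 5.00, with a ratio of 0.799 (0.372 and 1.36). Over the 976 members with CTCF in both lists no BPK-25 fold enrichment was above 18.7. The median ratio over these 976 was 0.218 (0.0475 and 0.944). The 3154 peaks that were not kept with CTCF in both lists showed the same direction, with medians of 7.81 and 5.54. Their ratio was 0.68 (0.16 and 1.28). Levels at strong CTCF summits alone were not taken for peaks that were not kept. The size of the change in that class is thus not read as a trait of kept peaks. Over each whole CTCF list the median fold enrichment was 11.32 under DMSO and 3.71 under BPK-25.

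The members with the highest CTCF show the lower BPK-25 CTCF fold enrichment peak by peak. On chromosome 9, 11341 to 11531, CTCF fold enrichment was 650.8 under DMSO and 10.4 under BPK-25, and TET3 fold enrichment was 5.08 (21 fragments) and 13.6 (39 fragments). On chromosome 11, 47376859 to 47377058, CTCF was 511.0 and 9.93, and TET3 4.96 (19 fragments) and 12.1 (34 fragments). On chromosome 3, 46530227 to 46530470, CTCF was 396.6 and 5.55, and TET3 5.20 (19 fragments) and 10.6 (27 fragments). In all 5 peaks named for their high DMSO CTCF, TET3 fold enrichment was higher under BPK-25, with ratios between 1.45 and 2.67. MBD3 fold enrichment was lower under BPK-25 in all 5 too, for example 21.0 against 8.26 on chromosome 9. That was the usual direction where MBD3 was in both lists. The median BPK-25 to DMSO ratio there was 0.758 at kept peaks and 0.776 over all DMSO TET3 peaks.

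The largest TET3 ratios among members well called in both lists were mostly at such places. The highest, 3.69, was on chromosome 1, 25174478 to 25174807, where TET3 was 4.10-fold in the DMSO list and 15.1-fold in the BPK-25 list, and CTCF was 167.6-fold and 8.80-fold. Its pileup was 23 and 39 fragments. Its local background, over the genome background, was 2.86 in the first list and 1.00 in the second. Of the 5 highest ratios, 4 had a CTCF summit of 81.8-fold or more within 34 bp. The exception was on chromosome 5, 180644226 to 180644806, where the summits of the treatments lay 811 bp apart and so describe different places in joined peaks. The 5 lowest ratios, 0.478 to 0.552, had a CTCF summit of at most 3.39-fold within 200 bp or none that near, though the strongest member above was among them with its summit of 91.8-fold 269 bp away. The lowest was on chromosome 9, 18976532 to 18977115, with TET3 at 11.9 (31 fragments) and 5.67 (14 fragments) and the nearest CTCF summit 8790 bp away.

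The strongest members without CTCF in either list had MBD3 under DMSO, as most strong TET3 peaks did. With those limits, the 5 strongest by DMSO TET3 q-value all had a DMSO MBD3 peak, of 6.02 to 7.68-fold, and no MBD3 peak under BPK-25. One was the peak on chromosome 5, 123991664 to 123992207, where TET3 reached 10.2-fold in the DMSO list (34 fragments) and 6.40-fold in the BPK-25 list (19 fragments). Another, on chromosome 1 at 228777237 to 228777433, had 7.75 (49 fragments) and 13.2 (79 fragments). Split by DMSO occupancy, 1310 members had CTCF and MBD3, 824 MBD3 alone, 133 CTCF alone and 227 neither. The median TET3 fold enrichment ratio was 1.15, 1.10, 1.29 and 1.16 in these classes, and the pileup ratio over the genome background 0.904, 0.859, 1.03 and 1.03, so the direction of the first and the second class turned with the scale. Members with CTCF alone had a fold enrichment ratio above 1 at 81.2% (73.5 to 87.5) and a pileup ratio above 1 at 57.9% (49.0 to 66.4). Those with MBD3 alone had 61.0% (57.6 to 64.4) and 33.5% (30.3 to 36.8). The nearest DMSO CTCF summit had a median fold enrichment of 53.4 (12.5 and 76.2) at members with CTCF alone. At those with CTCF and MBD3 it was 13.8 (4.0 and 93.2). The classes thus differed in CTCF strength as well as in MBD3, and the part of each in the ratios was not tested. A BPK-25 CTCF peak was present at 21.1% (14.5 to 29.0) of the members with CTCF alone and at 72.4% (69.9 to 74.8) of those with both.

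The other TET proteins were rarely found at kept peaks. TET2 overlapped 80 under DMSO, 3.21% (2.55 to 3.98), against 6.72% of all DMSO TET3 peaks, 1.01% (0.804 to 1.25) of those that were not kept and 32.9% (30.9 to 35.0) of kept peaks at a DMSO TET1 peak. Under BPK-25, TET2 overlapped 21 members, 0.842% (0.522 to 1.28), against 2.26% of all DMSO TET3 peaks. TET1 under BPK-25 overlapped 20, 0.802% (0.491 to 1.24), against 1.98%. At peaks that were not kept the share was lower, 0.0616% (0.02 to 0.144) for each of these BPK-25 lists. The shares over all DMSO TET3 peaks include peaks at DMSO TET1, which the rule removed from the members. Shares depended on the threshold and on a few regions. With only rows of −log10 q of at least 5 and 10 in all lists, 1.31% and 3.86% of kept peaks overlapped BPK-25 TET1 and 4.03% and 7.30% DMSO TET2. Without high local background the BPK-25 TET1 share was 0.524%. These lists held few peaks, and 7 of the members in each of them lay in regions of very high local background, described next. Of the 80 members with DMSO TET2, 64 had a DMSO MBD3 peak and 21 a strong CTCF summit. Over all members the shares were 85.6% and 22.6%, so no link with TET2 is read from these counts. The 3 members with the most lists outside those regions included chromosome 5, 11022 to 11569, which lacked TET1 under BPK-25 alone. Its TET3 fold enrichment was 7.42 and 4.91, and its TET2 fold enrichment 5.78 and 7.23, under DMSO and BPK-25.

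A local background of 20 times the genome background or more was found at 14 members. It was found at 42 of all DMSO TET3 peaks, 0.297%. These 14 had TET3 fold enrichments of 1.39 to 5.21 under DMSO. The highest background, 775.1 times, was on chromosome 10, 42529332 to 42529540, with TET3 fold enrichment of 1.44 and 1.70. The peak on chromosome 2, 74213543 to 74213816, differed from the rest in its change, with 2.62 under DMSO and 10.6 under BPK-25 at backgrounds of 450.3 and 231.6 times. Leaving the 14 out gave a strong CTCF share of 22.7% in place of 22.6%.

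Kept peaks lay on every chromosome from 1 to 22 and on X, with 15 on other contigs. Their share of the DMSO TET3 peaks ran from 12.6% (10.1 to 15.5) on chromosome 11 to 28.0% (20.3 to 36.7) on chromosome 21. Most stood alone: joining members at most 20000 bp apart left 2083 single peaks, 141 pairs, 20 runs of 3, 9 of 4, 2 of 5, 1 of 6 and 1 of 17.

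The longest was a run of 17 kept peaks on chromosome X, 114959735 to 115004382, a span of 44648 bp. Of its 16 gaps between neighbouring TET3 summits, 8 measured 2936 to 3030 bp and a further 2 were 5976 and 6004 bp. TET3 fold enrichment in the run was 2.17 to 5.58 under DMSO and 2.35 to 8.50 under BPK-25. It was higher under BPK-25 at 12 of 17, where 61.1% of all peaks present in both TET3 lists were. In the DMSO list the local background was 5.54 to 24.5 times the genome background. All 17 overlapped MBD3 peaks under both treatments and CTCF peaks under BPK-25, and 12 overlapped DMSO CTCF. Over all DMSO TET3 peaks the shares were 82.6% for DMSO MBD3, 57.9% for BPK-25 MBD3, 56.4% for BPK-25 CTCF and 58.1% for DMSO CTCF. The overlaps of the other TET3 peaks in the span were not counted, so these counts are not read as a trait of kept peaks. The span held 32 DMSO TET3 peaks, of which 13 overlapped DMSO TET1 and 2 were not kept. Whether reads there are shared between near-identical copies was not tested.

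**Figure D5:**
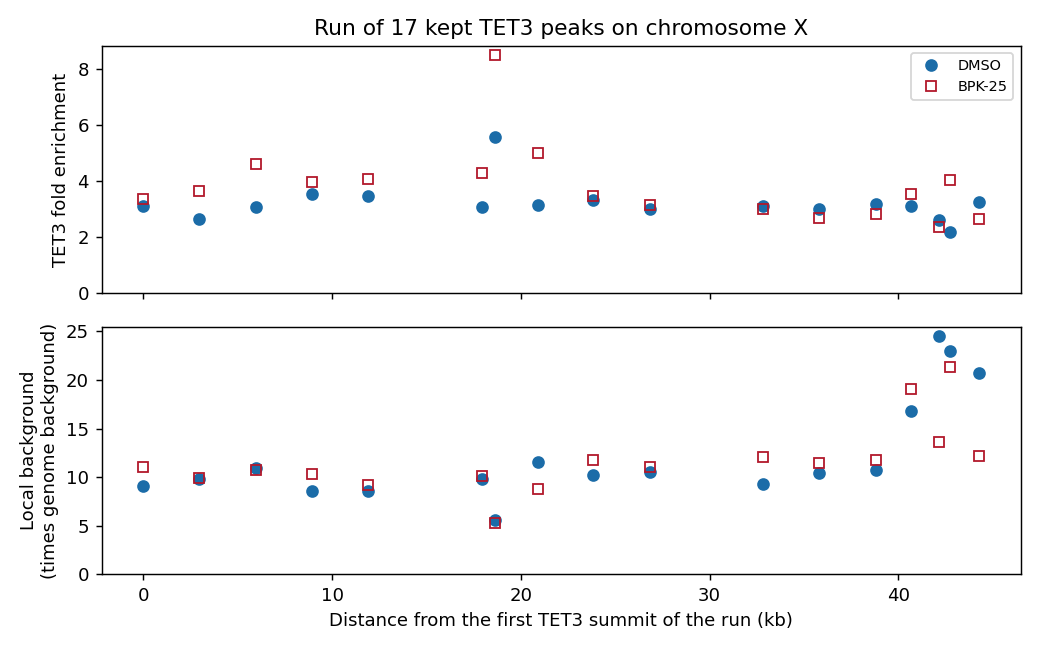
The 17 kept peaks of the chromosome X run by distance of their DMSO summit from the first (x axis, kb). Top, TET3 fold enrichment under DMSO (filled circles) and BPK-25 (open squares); bottom, the local background as a multiple of the genome background. The peak 18604 bp from the first has the highest fold enrichment, 5.58 and 8.50, and the lowest DMSO background, 5.54 times.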

How the data were processed

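ChIP-seq of CTCF, MBD3 and Flag-tagged TET proteins was deposited as 1 narrowPeak list per target and treatment, 10 in all, each pooled over replicates by its name. The submitters' processing notes name MACS2 2.1.2, the build hg19, Bowtie2 2.3.4, bedtools 2.25.0, SAMtools 1.9 and FastQC 0.11.7. The settings and controls of the peak calls are not known here. The deposited values are the fold enrichment (ratio) at the summit, the −log10 p-value and the −log10 q-value of each row.

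Rows that overlapped or touched were joined, keeping the summit of highest −log10 q. Overlap meant 1 bp or more. Pileup and local background were solved from fold enrichment and the Poisson p-value; summits under 200 fragments came out whole within 0.02 fragments in 100.0% of rows of every list. The genome background is the lowest local background of a list. The scripts (Python 3.11.15, numpy 2.4.6, pandas 2.3.3, SciPy 1.17.1, matplotlib 3.10.9) were tested on simulated data with known answers.

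The members and lists were chosen with earlier results of these data known. The limit of 30 for strong CTCF, its bins, the run gap of 20000 bp and the background groups were chosen after seeing the data. Named regions follow rules on chromosomes 1 to 22 and X with local background under 20 times: the 10 of highest DMSO TET3 q-value, the 5 highest and 5 lowest ratios with −log10 q of at least 5 in both TET3 lists, the 5 of highest CTCF within 200 bp, the 5 strongest without CTCF, the 5 strongest in none of the 7 lists, the 3 in most lists, and 3 on each side of the overlap rule. Regions of high background and the chromosome X run were named after their values were seen. No genome of hg19 was used here, so no gene is named and no sequence shown. Depth per sample is unknown from peak lists.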

Additional observations from a re-analysis of the deposited data

How the results depend on the processing

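Of 113 values under alternative settings, 41 moved beyond the interval of a share or by over 1.5 times for a number of peaks. Medians were set against the quartiles of single peaks, a wide limit that none passed: the distance to CTCF summits was 68 bp and 41 to 68 bp under the settings, and the TET3 ratio at strong CTCF, 1.52 as reported, was 1.24 at a −log10 q limit of 10. Limiting all lists to −log10 q of at least 5 left 992 kept peaks. Their share was 89.5% at DMSO MBD3, 48.2% at BPK-25 CTCF, 48.4% at BPK-25 MBD3, 4.03% at DMSO TET2, 1.31% at BPK-25 TET1 and 24.6% at strong CTCF summits. Peaks that were not kept gave 59.7% at DMSO CTCF, 86.9% at DMSO MBD3 and 8.87% at strong CTCF. A limit of 10 left 233 kept peaks, with 55.4% at DMSO CTCF, 82.4% at DMSO MBD3, 37.8% at BPK-25 CTCF, 36.9% at BPK-25 MBD3, 7.30% at DMSO TET2 and 3.86% at BPK-25 TET1. Peaks that were not kept then gave 53.7%, 84.8% and, at strong CTCF, 6.86%. Asking for at least 50% of the TET3 peak to be covered gave 47.5% at DMSO CTCF, 79.7% at DMSO MBD3, 36.7% at BPK-25 CTCF, 39.0% at BPK-25 MBD3, 2.54% at DMSO TET2 and 24.7% at strong CTCF, and 42.3% and 69.3% at DMSO CTCF and MBD3 for peaks that were not kept. With DMSO TET1 peaks not used there were 4502 kept peaks, with 64.4% at DMSO CTCF, 89.2% at DMSO MBD3, 55.6% at BPK-25 CTCF, 57.7% at BPK-25 MBD3, 16.5% at DMSO TET2 and 5.98% at BPK-25 TET1; the others gave 55.1% and 79.5% at DMSO CTCF and MBD3. Limits of 16 and 64 for strong CTCF, chosen after seeing the data, gave 25.2% and 18.0% of kept peaks and 12.2% and 6.05% of the others. Under every setting run, the strong CTCF share was higher at kept peaks, and the median TET3 ratio at strong CTCF summits (1.24 to 1.61) was above that away from them (1.04 to 1.13). Chromosomes 1 to 22 and X only, joining rows within 500 bp and leaving out high local background moved no share beyond its interval, though the last left 0.524% of kept peaks at BPK-25 TET1. The cause of these moves was not tested, beyond the smaller or larger sets that the settings themselves make.

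No paired analysis was possible because each list joins the replicates of its group. For the same reason no replicate could be left out. Summits of 17 and 14 fragments in the median limit the precision of single ratios, and a peak missing from a list may lie just under its threshold.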
